A study of Mus musculus with 4 samples.

Results

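Gfap-poor parenchymal astrocytes are astrocytes of the brain tissue proper in which the transcript of Gfap, an intermediate filament gene that many astrocytes of the grey matter hold at a low level, is rare or not detected. They were chosen from the deposited counts of 4 coronal brain sections by thresholds on the cells themselves. A cell was kept if at least 10 genes were detected in it and its volume was at least 50 µm³. It was called an astrocyte if at least 4 of Aqp4, Sox9, Gja1, F3, Cldn10, Plpp3 and Prodh were detected, if these made up at least 8% of its transcripts, and if at most 2 of the 5 neuroblast genes Dcx, Sox11, Sox4, Dlx6os1 and Ccnd2 were detected. Astrocytes with at least 50 transcripts and Gfap below 0.5% of them were taken. This gave 14476 of 281824 kept cells, namely 3621 and 3767 in the sections of young mice and 3354 and 3734 in those of aged mice. Astrocytes by the same rule with at least 0.5% Gfap (Gfap-rich, 2284, 2179, 1936 and 2344 cells in the same order) were the class most like them.

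The study compared the striatum of young (2 months) and aged (18 months) mice by MERFISH, which images single mRNA molecules in place, with a panel of 383 genes. There were 2 bilateral sections per age, called Young replicate 1 and 2 and Aged replicate 1 and 2. The mice of the study were wild-type C57BL/6NTac, with no transgene or treatment in either group, and the sex of the mouse behind each section was not given in the sources used here. Each section was taken as 1 sample, since cells of a section share their source, and with 2 sections per age a two-sided exact permutation test cannot go below p = 0.3333. A kept cell had a median of 400, 325, 215 and 293 transcripts in Young 1, Young 2, Aged 1 and Aged 2. Depth thus moved with age. Its part in the results was examined by thinning all sections to the mean transcripts per kept cell of Aged replicate 1. Groups of transcripts below are given per 10000 transcripts of the cells concerned.

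Astrocytes tile the brain and take up potassium and neurotransmitters from the space around synapses. They also couple into networks through gap junctions, contact vessels with their end-feet and supply lipids. Astrocytes of white matter and of the brain surface are known to be rich in Gfap, whereas protoplasmic astrocytes of the grey matter hold little of it until they react to injury, disease or age.

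The Gfap limit was coarse at this depth. No Gfap transcript at all was seen in 72.7% and 80.2% of the Gfap-poor cells of the young sections and in 83.9% and 77.6% of those of the aged sections. A cell needed at least 201 transcripts to hold 1 Gfap transcript and still lie below the limit, and between 33.6% and 50.7% of the Gfap-poor cells of a section had fewer than 200. Just inside the limit, at 0.4 to 0.5% Gfap, lay 237, 210, 187 and 242 cells (in the order Young 1, Young 2, Aged 1, Aged 2, which holds for all lists of 4 values below). Just outside, below 0.6%, lay 189, 171, 154 and 205 cells. The GABA transporter gene Slc6a11 stood at 522, 441, 401 and 372 per 10000 just inside and at 484, 497, 447 and 408 just outside. For this gene the sections did not share a direction across the limit.

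Genes known from astrocytes stood high in these cells, in part through the rule itself. The gap junction gene Gja1 was at 628 ± 33.8 per 10000 (mean ± SD, n = 4 sections) and the lipid phosphatase gene Plpp3 at 545 ± 54.0. Both belong to the rule, which asked its astrocyte genes to reach 8% of the transcripts, so their level is a description only. The lipid carriers Apoe and Clu were at 477 ± 17.2 and 468 ± 76.6. Among genes that took no part in the choice, the Wnt receptor gene Fzd2 was 12.8 to 22.1 times as high as in the cells outside the astrocyte rule in each section. The same ratio was 11.3 to 14.4 for Slc6a11, 10.2 to 14.3 for Itih3, 9.93 to 12.6 for the adhesion gene Vcam1, 9.01 to 13.5 for the cytokine gene Il18 and 9.44 to 10.2 for the Notch target Hes5. Genes for thyroid hormone handling, Slco1c1 (uptake of thyroxine) and Dio2 (activation of thyroxine), were 7.69 to 8.50 and 6.91 to 8.95 times as high. These genes, known from astrocytes, took no part in the choice, and their levels describe the chosen cells.

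Transcripts of neighbouring cells were also present. At least 3 markers of another cell class were detected in so many of the Gfap-poor cells that leaving those out kept 6080, or 42.0%, of them. The 8 pan-neuronal markers of the panel summed to 243, 261, 292 and 275 per 10000, against 1741 to 1883 in the cells outside the astrocyte rule. Markers of microglia, whose 9 genes summed to 59.1, 45.5, 66.0 and 53.3 in the Gfap-poor cells and to 61.2 to 67.4 elsewhere, were hardly set apart. Results that involve genes of other cells are given below with this in view, and again without the cells of mixed markers. Leaving these cells out selects on the markers themselves. Where a marker gene of another class falls or turns in those fits, the filter fixed part of that in advance.

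Compared with the Gfap-rich class, which the rule itself set apart by Gfap (9.74 ± 1.39 against 356 per 10000), the description was as follows. Gfap-poor cells held less Aqp4, the water channel of the end-feet, with 0.51 to 0.61 times the Gfap-rich level in each section. They also held less of the filament gene Vim (0.31 to 0.35 times), the complement gene C4b (0.28 to 0.37 times) and the cystine transporter gene Slc7a11 (0.53 to 0.69 times). They held more Slco1c1 (1.53 to 1.76 times), Hes5 (1.48 to 1.65 times), Fzd2 (1.41 to 1.56 times) and F3 (1.28 to 1.44 times). Crym, which encodes a thyroid hormone binding protein, was 4.08 to 8.20 times as high. Gja1 and the cysteine synthesis gene Cbs were within 0.97 to 1.06 times the Gfap-rich level. These ratios were taken over whole sections, and the classes differed in where they lay, as given below. The part of location in the ratios, that of Crym among them, was not tested.

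Location was measured next, which the rule had not used. Tissue zones were drawn from the other cells within 150 µm of each cell. The striatum was the pair of large areas in which at least 40% of them were medium spiny neurons, and white matter the area in which at least 40% were oligodendrocytes. Other grey matter was the remainder, outside these, the ventricular wall and smaller areas rich in spiny neurons. Gfap-poor astrocytes lay mainly in grey matter, and few lay in white matter. The striatum held 27.1%, 23.7%, 24.1% and 22.1% of them, against 5.56%, 4.18%, 7.33% and 8.92% of the Gfap-rich class. White matter held 0.967%, 0.717%, 1.10% and 1.4997% of them, against 12.9%, 13.5%, 18.3% and 17.2% of the Gfap-rich class. In every section the striatal share was higher and the white matter share lower than in the Gfap-rich class, by 17.8 ± 3.62 and 14.4 ± 2.44 percentage points (mean ± SD over 4 sections). Each had an exact paired permutation p of 0.125, two-sided, which is the smallest that 4 sections can give (adjusted p = 0.167 by Benjamini-Hochberg over 12 such comparisons of location). Against all other cells, in contrast, the striatal share of the Gfap-poor cells was lower in all 4 sections, by 1.32 ± 0.82 percentage points, and their share in other grey matter was higher in all 4, by 5.71 ± 1.501 points (exact paired permutation p = 0.125 for both).

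**Figure D1:**
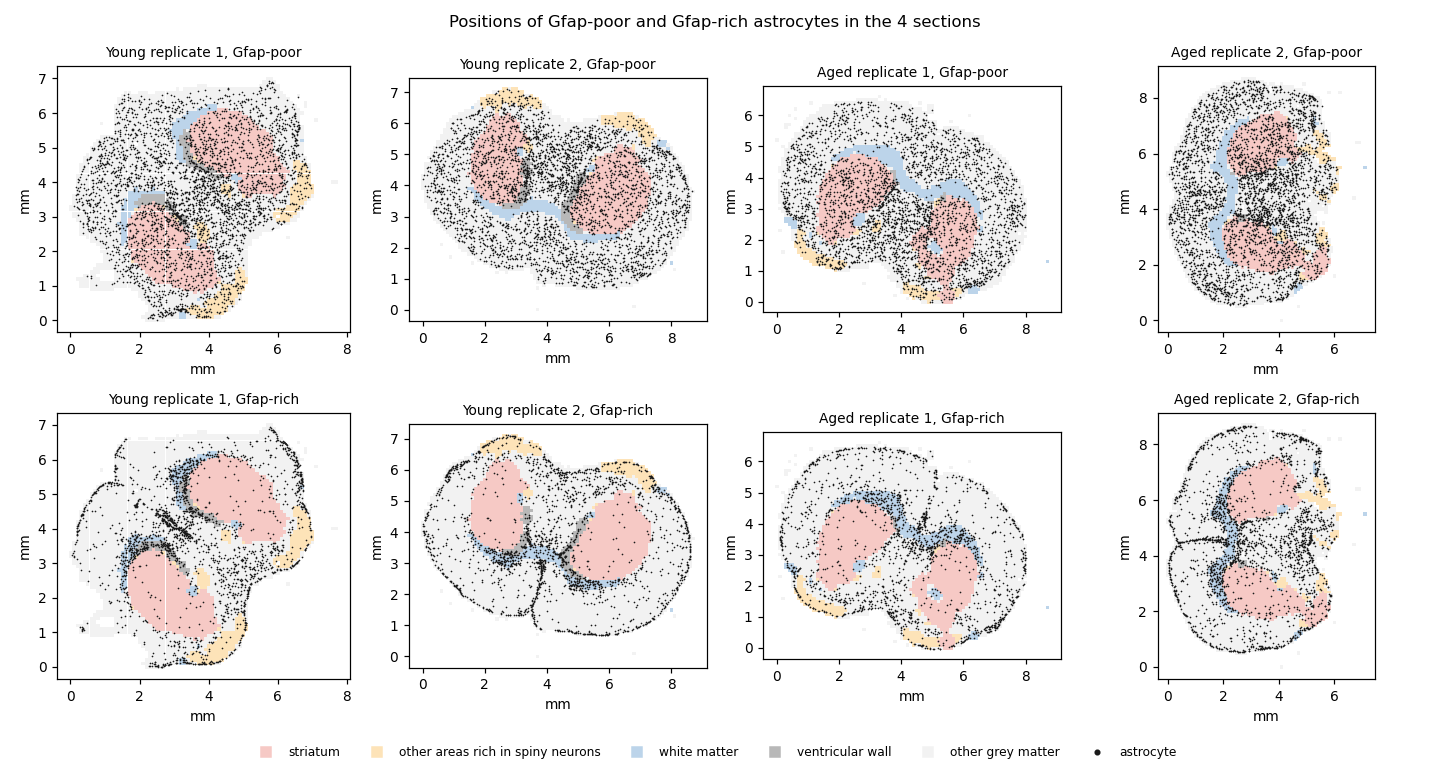
Positions of Gfap-poor astrocytes (upper row) and Gfap-rich astrocytes (lower row) in each section, with axes in mm and 1 black dot per cell over the tissue zones in colour. The Gfap-poor cells lie over striatum and other grey matter and leave the white matter nearly free. Of the Gfap-rich cells, 12.9% to 18.3% lie in white matter and 16.99% to 20.0% within 100 µm of the tissue edge. Most of them (66.2% to 71.6%) lie in other grey matter.

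The remaining Gfap-poor cells lay mostly in other grey matter (60.9%, 67.5%, 69.9% and 72.6%), which held a similar share of the Gfap-rich class (66.2% to 71.6%). The tissue edge set the Gfap-rich class apart from them more. Of the Gfap-poor cells, 3.29%, 3.08%, 3.10% and 4.71% lay within 100 µm of the edge of the section, against 16.99%, 20.0%, 18.9% and 17.8% of the Gfap-rich cells (exact paired permutation p = 0.125). Cells of neither class stood at 4.37%, 3.40%, 3.59% and 3.82%, near the Gfap-poor share. Gfap-poor cells made up 88.6%, 90.7%, 85.1% and 79.8% of the astrocytes of the striatum, 59.3% to 63.4% of those of other grey matter, and 8.39% to 12.2% of those of white matter. By position, then, most of them were parenchymal.

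**Figure D2:**
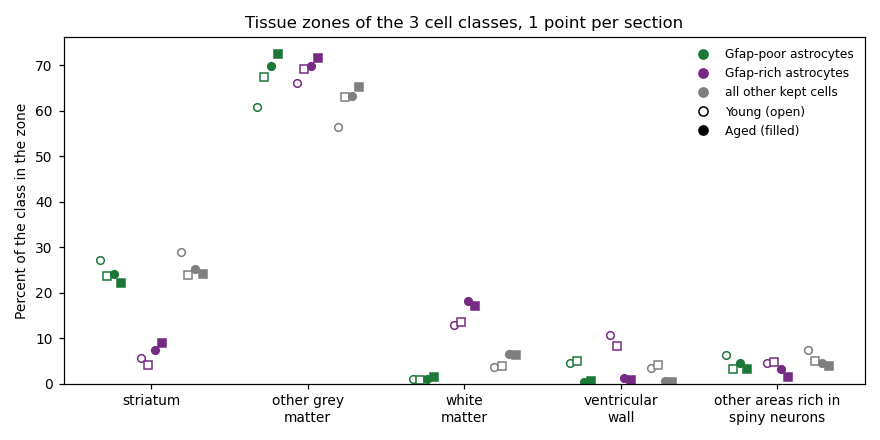
Percent of Gfap-poor astrocytes, Gfap-rich astrocytes and all other kept cells in each tissue zone, 1 point per section, open for Young and filled for Aged. Striatal shares of the Gfap-poor cells lie at 22.1% to 27.1% and those of the Gfap-rich cells at 4.18% to 8.92%.

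Within the striatum no difference in density between its dorsal and ventral part passed the test. The density was 109, 97.7, 95.7 and 94.97 cells per mm² over the whole striatum, with values of 114, 98.9, 98.3 and 91.4 in the dorsal part and 103, 96.3, 91.9 and 99.8 in the ventral part (exact paired permutation p = 0.5). In segments of 500 µm it ranged from 95.6 to 127.7 in Young 1, from 91.4 to 107.3 in Young 2, from 78.1 to 101.1 in Aged 1 and from 81.7 to 111.7 in Aged 2. The most ventral segment was at 105.4 and 107.3 at 2 months and at 78.1 and 81.7 at 18 months, without overlap, on 55 to 107 cells per section. Segment 2 did not overlap either (127.7 and 102.3 against 99.3 and 87.7), and the remaining segments did. The most ventral segment pooled all tissue from 2500 µm down. In both aged sections a small piece of ventral tubercle was joined to the striatum of a hemisphere. The part of this outline in the difference was not tested. The nearest other Gfap-poor astrocyte of a striatal cell was at a median distance of 47.6, 49.1, 49.4 and 48.9 µm. The cell outside the astrocyte rule that lay nearest to a striatal Gfap-poor astrocyte was a medium spiny neuron for 62.8%, 66.1%, 58.1% and 61.3% of them. Such neurons made up 67.8%, 67.3%, 63.8% and 66.65% of the striatal cells outside the rule. In other grey matter, the nearest was a neuron for 44.8% to 48.45% of the Gfap-poor cells but for 26.2% to 30.0% of the Gfap-rich cells. Neurons made up 55.5%, 55.5% and 53.8% of the cells outside the rule there in Young 1, Young 2 and Aged 1. Both classes lay below that share in these sections.

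No change in number with age passed a test. Their share of the kept cells was 5.32% and 5.32% at 2 months and 4.90% and 5.004% at 18 months, without overlap, and their striatal density fell on the same side (exact permutation p = 0.3333 for both). After all sections had been thinned to the same mean depth per kept cell, the difference in share turned from -0.370 to 0.0939 percentage points. That in density turned from -8.12 to 1.15 cells per mm². The Gfap-poor cells differed less in depth than the kept cells, with medians of 267, 220, 197 and 224 transcripts before thinning. The thinning therefore did not bring them to the same depth, and it cannot decide the direction at equal depth. The Gfap-poor share of striatal astrocytes was lower in both aged sections than in both young ones, by 7.21 percentage points (exact permutation p = 0.3333, the smallest possible). All 13 measures of location compared between the ages had adjusted p values of 0.542 or more. The share in the ventricular wall, 4.64% and 4.94% against 0.358% and 0.562%, moved with the zone itself, since the wall was drawn from neuroblasts and held 3.47% and 4.08% of the other cells in the young but 0.477% and 0.446% in the aged sections.

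Transcripts of these cells were then compared by position. Summed counts cannot tell fewer cells with a transcript from less RNA per cell. Counts were summed over the Gfap-poor cells of a zone in each section, and the striatum was compared with other grey matter by edgeR's quasi-likelihood test with the section as a block. Of 378 genes tested, 153 passed the adjusted threshold of 0.05 (40.5%), 71 higher in the striatum (18.8%) and 82 lower (21.7%), and 47.4% had an unadjusted p under 0.05. With 40.5% of the panel called, a call by itself set no gene apart, and sizes are given below. Of the 153, 8 were genes of the rule, which are left as a description.

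Among the transporters, 5 of 8 genes were lower and 1 was higher in the striatum. Slc6a11 (GAT-3, which clears GABA from the space around synapses) stood at 203, 192, 202 and 169 per 10000 in striatal cells and at 452, 444, 409 and 359 in those of other grey matter. The lowest value outside the striatum was far above the highest inside it, and the log2 difference was -1.04 ± 0.034 (SE; edgeR adjusted p = 1.52e-08). Slc38a1, a glutamine transporter, was at 16.1, 16.6, 22.7 and 19.9 outside and at 4.34, 4.77, 5.91 and 5.60 inside (log2 difference -1.79 ± 0.078, adjusted p = 1.17e-07). Its level was higher in the cells outside the astrocyte rule, at 45.2 in other grey matter and 20.0 in the striatum on average. Slc16a1 (monocarboxylates such as lactate) and Slc7a1 (cationic amino acids) were lower by smaller steps of -0.50 and -0.30, and Slco1c1 was higher by 0.21. Slc7a11, at 63.3 and 70.0 on average, did not pass.

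The lipid carriers pointed the other way. Apoe stood at 583, 577, 570 and 602 in the striatum and at 450, 421, 418 and 448 elsewhere, with the zones well apart (log2 difference 0.50 ± 0.020, adjusted p = 8.29e-08). Clu was higher by 0.49 ± 0.024, from 523, 393, 380 and 386 to 662, 539, 501 and 529. Thrsp, which is involved in fatty acid synthesis, was lower by 1.26 on the log2 scale at 2.55 to 3.68 per 10000 in the striatum, and Pltp did not pass (adjusted p = 0.069). Of the 8 genes of metabolism and redox balance, Mgst1, a glutathione transferase, was higher by 1.005 ± 0.12 and Ddah1 by 0.24 ± 0.056, and none was lower.

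Genes of radial glia and progenitors split evenly, with 5 of 11 higher and 5 lower. The inhibitors of differentiation Id3, Id4 and Id2 were higher in the striatum by 1.10, 0.52 and 0.22 on the log2 scale, as were Hes5 (0.78) and Fzd2 (0.53). Hopx, a homeobox gene of radial glia and neural stem cells, was at 14.1, 12.2, 9.94 and 10.8 in other grey matter and at 3.02, 3.55, 2.76 and 2.30 in the striatum (log2 difference -1.95 ± 0.11, adjusted p = 6.49e-07). Synm, Fabp7, Egfr and Vim were also lower, by -0.98, -0.70, -0.44 and -0.40.

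The largest difference in a gene that these cells held above the surrounding cells was that of Crym. It stood at 79.7, 72.4, 51.3 and 74.0 per 10000 in the striatum and at 6.94, 5.09, 9.85 and 13.7 in other grey matter (log2 difference 3.10 ± 0.24, adjusted p = 5.58e-06). Cells of the striatum outside the astrocyte rule held 12.3 on average, below the level of the Gfap-poor cells there. Itih3, a component of the hyaluronan matrix, was lower at 16.6, 12.2, 17.2 and 14.96 against 65.5, 58.0, 44.9 and 54.4 (-1.80 ± 0.12, adjusted p = 1.79e-06).

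Of 16 reactive and immune genes, 2 were higher and 4 lower. C4b, a complement component, was at 19.3, 14.8, 36.3 and 29.9 in the striatum and at 7.16, 5.37, 12.503 and 10.4 elsewhere, higher in all 4 sections (log2 difference 1.56 ± 0.067, adjusted p = 1.1e-07). Mice also carry C4a, a near copy of C4b, and whether the probes told them apart is not given in the sources used here. Vcam1 was higher by 0.49 ± 0.052. S100b, Cryab, Serpina3n and C3 had log2 differences of -0.41, -0.34, -0.56 and -0.76, and the last 2 kept their call in 8 and 10 of 16 alternatives.

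**Figure D3:**
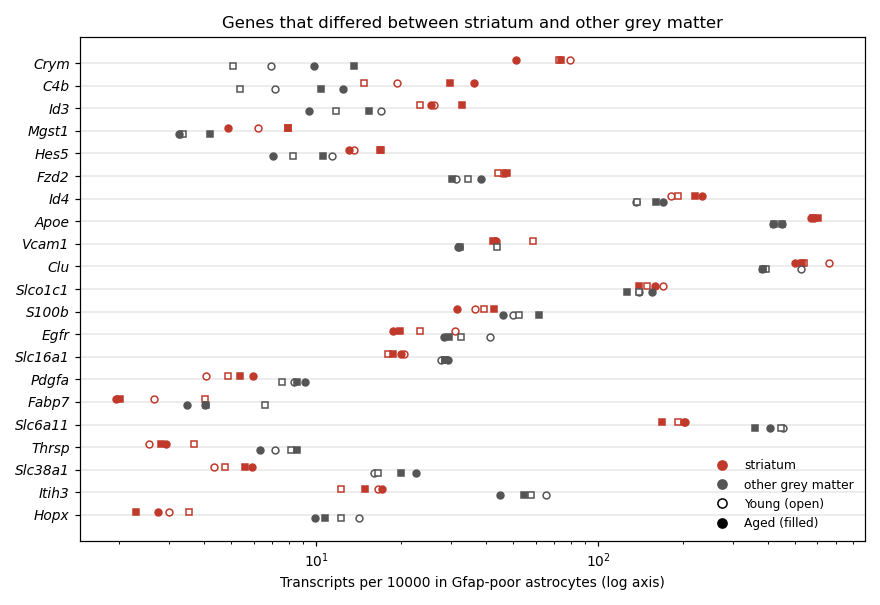
Transcripts per 10000 (log axis) in Gfap-poor astrocytes of the striatum (red) and of other grey matter (grey) for 21 genes past the threshold, 1 point per section, open for Young and filled for Aged. Crym sits at 51.3 to 79.7 in the striatum and 5.09 to 13.7 elsewhere, and Slc6a11 at 169 to 203 against 359 to 452.

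The other large differences lay in neuronal genes. All 9 markers of medium spiny neurons were higher in striatal Gfap-poor cells, led by Drd2 (log2 difference 3.81), Penk (3.54) and Rgs9 (3.30), and 5 of 8 pan-neuronal markers were lower, led by Stmn2 (-2.76). The 9 spiny neuron markers summed to 359, 397, 372 and 378 per 10000 in striatal members and to 55.9, 61.3, 70.0 and 67.1 in those of other grey matter. Penk was at 43.9 in the former on average and at 233 in the striatal cells outside the astrocyte rule. Of the 67 genes called higher apart from those of the rule, 28 were more abundant in striatal Gfap-poor cells than in the cells around them, and of the 78 called lower, 27 were so in other grey matter. For 19 of those 28, among them Apoe, Clu, Fzd2, Vcam1 and Timp3, the cells around differed in the opposite direction. For 3 of those 27 (Dab2, Ddit4l and Tiparp) they did so too. Of all 67 genes called higher, the cells around differed in the same direction for 43, and of the 78 called lower for 74. Crym, C4b, Slc6a11, Hopx and Itih3 were not among the genes of opposite direction. Without the cells of mixed markers, Crym (3.06), C4b, Slc6a11 (-0.83), Hopx (-1.95), Itih3 and Apoe (0.68) stayed past the threshold.

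Inside the striatum, the dorsal and ventral parts of each hemisphere were compared in the same way. Of 350 genes tested, 19 passed (5.43%), 10 higher dorsally (2.86%) and 9 higher ventrally (2.57%). Crym stood at 56.2, 51.2, 35.9 and 62.5 per 10000 in the dorsal part and at 109, 99.5, 72.5 and 88.0 in the ventral part, higher ventrally in all 4 sections (log2 difference, dorsal minus ventral, -0.89 ± 0.090, adjusted p = 4.31e-05). In segments of 500 µm it climbed from 18.0, 12.4, 7.14 and 18.6 below the dorsal end to a peak of 118, 124, 91.2 and 106 in segment 4 or 5, and was lower again in segment 6. In the striatal cells outside the astrocyte rule Crym climbed along the same axis at a lower level, from 3.995, 3.270, 2.737 and 6.965 in segment 1 to 25.6, 18.6, 18.6 and 23.4 in segment 5. The dorsal and ventral means there were 8.49 and 17.2. Apoe, Fabp7, Hes5, Id2 and Slc7a11 were also higher ventrally, with log2 differences of -0.24, -1.17, -0.55, -0.37 and -0.42. Fabp7, a fatty acid binding protein of radial glia, was at 1.02 to 2.63 per 10000 in the dorsal part and at 3.14 to 5.82 in the ventral part. Tshz2, Marcks and Sox9 made up the rest of the 9, and Sox9 is a gene of the rule.

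**Figure D4:**
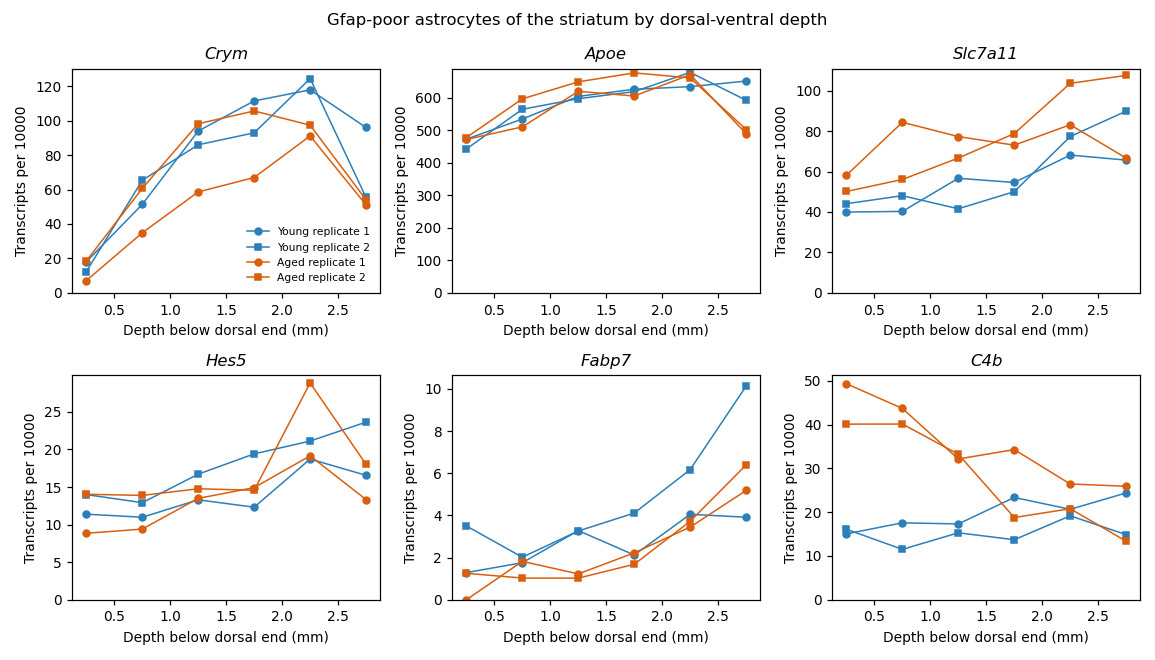
Transcripts per 10000 of 6 genes in striatal Gfap-poor astrocytes by depth below the dorsal end in steps of 500 µm, 1 line per section. Crym climbs from at most 18.6 dorsally to peaks of 91.2 to 124, and C4b of the aged sections is highest dorsally. Hes5 is at 8.85 to 14.04 in segment 1 and at 18.72 to 28.85 in segment 5. In Aged replicate 2, Hes5 stays at 13.89 to 14.77 over segments 1 to 4.

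Higher dorsally were among others Thbs4, a thrombospondin, the spiny neuron genes Rgs9 and Pde10a, and a further 5 genes (Rgs4, Brinp1, Spock3, Igf1r and Pcp4l1). Thbs4 was rare, with 62, 38, 26 and 9 transcripts in the dorsal and 6, 4, 1 and 3 in the ventral part (log2 difference 2.82 ± 0.38, adjusted p = 0.000447). In the striatal cells outside the rule, Rgs9 and Pde10a stood higher dorsally too, at 281 against 235 and 421 against 320. Slc6a11 (adjusted p = 0.185) and C4b (0.673) did not pass. Without Aged replicate 1, 5 genes passed in place of 19, and by limma 1 did. Without the mixed cells, Apoe (-0.071, adjusted p = 0.739) and Hes5 (-0.38, adjusted p = 0.238) no longer passed, nor did Rgs9 (adjusted p = 0.439), Pde10a (0.739), Rgs4 (0.0837), Spock3 (0.505) and Pcp4l1 (0.6003). Crym, Fabp7, Id2, Slc7a11, Tshz2, Marcks and Igf1r still passed. Rgs9 and Pde10a are spiny neuron markers and took part in defining the mixed cells.

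Few genes of the Gfap-poor astrocytes passed the test of age. Of 383 genes tested over all these cells, 5 passed (1.31%), 4 higher in the aged sections (1.04%) and 1 lower (0.261%), and 31 (8.09%) had an unadjusted p under 0.05. None belonged to the rule. None of the 8 transport, 4 lipid, 8 metabolism, 11 progenitor or 6 signalling genes passed, and of 16 reactive and immune genes C3 and C4b were higher. None of the 10 astrocyte markers passed either, but Aqp4, Gja1, F3 and Plpp3 among them belong to the rule and are a description only.

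Cd38, which encodes an enzyme that consumes NAD and is enriched in astrocytes here (8.02 to 13.1 times the level outside the rule), fell. It stood at 15.2 and 18.1 per 10000 in the young and at 8.08 and 8.71 in the aged sections. Both aged values lay below both young ones, and the log2 difference was -0.97 ± 0.19 (edgeR adjusted p = 0.00323). The same was seen in striatal cells (11.7 and 15.2 against 5.68 and 5.60) and in those of other grey matter (17.9 and 20.8 against 9.11 and 9.97). Cd38 stayed past the threshold with the mixed cells left out (adjusted p = 0.0146) and after thinning.

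C4b rose from 11.8 and 9.11 to 19.2 and 15.5 per 10000 (log2 difference 0.76 ± 0.19, adjusted p = 0.0198), again without overlap. C3, the central complement component, rose from 1.75 and 1.196 to 2.69 and 4.26 (1.26 ± 0.29, adjusted p = 0.00941). These were 192, 115, 197 and 407 transcripts in all. The aged level of C3 in other grey matter was 2.97 and 4.55, and that in the striatum 1.21 and 1.74 against 1.62 and 0.650 in the young, which overlap. The 9 microglia markers, summed, overlapped between the ages in the Gfap-poor cells (59.1 and 45.5 against 66.0 and 53.3), and their part in the change of C3 and C4b was not tested. Without the mixed cells, C4b (0.62, adjusted p = 0.145) and C3 (1.33, adjusted p = 0.133) kept their direction but did not pass.

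The other 2 genes that rose, Meg3 and Snhg11, are long non-coding RNAs of neurons. Meg3 was at 19.6 and 19.3 in the young and at 41.0 and 26.5 in the aged sections (0.82 ± 0.17, adjusted p = 0.00546). Snhg11 was at 12.95 and 14.4 against 30.3 and 18.0 (0.84 ± 0.19, adjusted p = 0.00919). Both were highest in Aged replicate 1, and the cells outside the class held far more of them, 410 to 616 and 366 to 487. Without the mixed cells Meg3 turned to -0.47 (adjusted p = 0.532) and Snhg11 to 0.39 (adjusted p = 0.665). Both are among the pan-neuronal markers that defined the mixed cells, so this fit cannot decide whether they rose in the Gfap-poor cells.

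**Figure D5:**
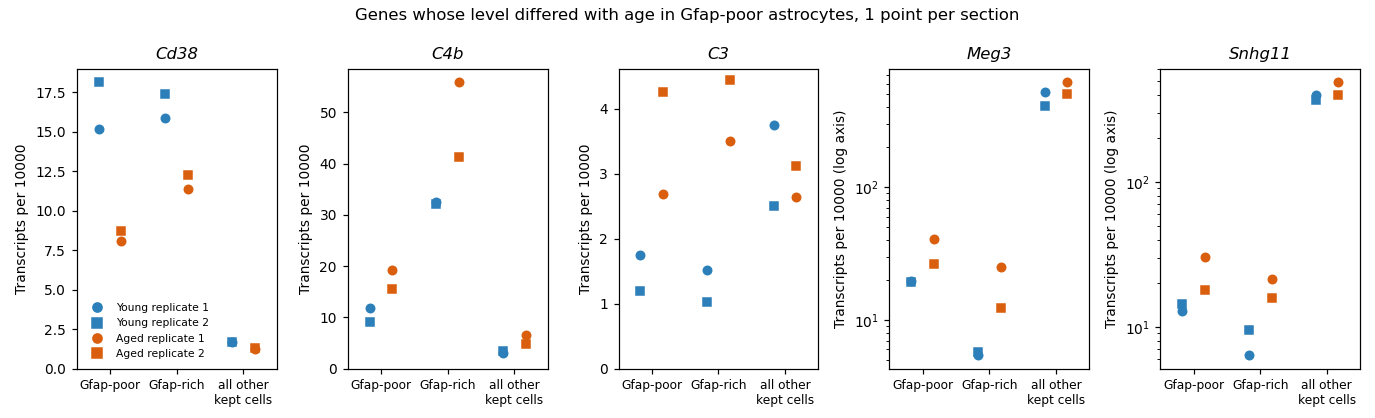
Transcripts per 10000 of the 5 genes called with age, in Gfap-poor astrocytes, Gfap-rich astrocytes and all other kept cells (which include the Gfap-rich), 1 point per section in blue for Young and orange for Aged, with log axes for Meg3 and Snhg11. Cd38 of the Gfap-poor cells is at 15.2 and 18.1 in Young and at 8.08 and 8.71 in Aged.

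These calls were fragile. None of the 5 passed when any 1 of the 4 sections was left out, which leaves an age with a single section, and none passed by limma. With the ventricular wall left out, an alternative added after seeing the data, 12 genes passed, among them Vim, Synm and Nnat (higher) and Dab2 (lower).

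In the striatal Gfap-poor cells alone, 0 of 367 genes passed by edgeR's quasi-likelihood test (0%), with 28 (7.63%) at an unadjusted p under 0.05, 2 genes past the threshold by DESeq2 and 0 by limma. The smallest p values were again those of Cd38 (log2 difference -1.26 ± 0.22, adjusted p = 0.221) and C4b (19.3 and 14.8 against 36.3 and 29.9; 0.93 ± 0.20, adjusted p = 0.351). These were the 2 genes called by DESeq2, in the same directions. Dio2 was at 82.5 and 75.8 in the young and at 58.6 and 54.5 in the aged sections, and Slc7a11 at 53.0 and 52.9 against 74.7 and 72.6 (adjusted p = 0.464 for both).

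Whether age acted differently on the dorsal and the ventral part was asked by the interaction of age and part. Of 350 genes, 9 passed (2.57%), 4 with a more positive change dorsally (1.14%) and 5 with a more positive change ventrally (1.43%), and 9.71% had an unadjusted p under 0.05. C4b of the dorsal part was at 16.9 and 14.1 in the young and at 40.9 and 37.2 in the aged sections. In the ventral part it was at 22.3 and 15.8 against 29.9 and 20.8, so that the ages overlapped there and not dorsally. The interaction was 0.95 ± 0.23 (edgeR adjusted p = 0.00308). In the uppermost 500 µm, C4b was at 15.04 and 16.1 in the young and at 49.3 and 40.1 in the aged sections. In the lowest segment it was at 24.4 and 14.9 against 25.9 and 13.4. C4b also rose in the striatal cells outside the astrocyte rule, at a lower level. It was there at 1.69 and 2.39 against 7.20 and 5.17 in the uppermost segment. In the lowest it was at 2.01 and 2.47 against 3.37 and 5.20. The sign of the C4b interaction in the Gfap-poor cells held under all 17 alternatives, between 0.70 and 1.34, but its call did in 3 of them.

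Of the remaining 8 genes, Trf, Cldn11 and Mag are made by oligodendrocytes. In the ventral part of Young replicate 2 they had 57, 53 and 27 transcripts, against 212, 147 and 120 in Young replicate 1. Of the 7 oligodendrocyte markers, 4 were higher in striatal than in other Gfap-poor cells, but without the mixed cells Mal alone of them passed (0.54, adjusted p = 0.0156). Mobp was then at 0.40 (adjusted p = 0.314), Trf at 0.34 (adjusted p = 0.292) and Cldn11 at -0.77 (adjusted p = 0.318), the opposite direction. These 4 markers took part in defining the mixed cells. The smooth muscle gene Acta2 had 3 transcripts in the ventral part of Young replicate 2 and 25 in that of Young replicate 1, and the microglial gene P2ry12 had 63 and 73. Meg3, Sst and Slfn5 had positive interactions. By DESeq2 and by limma, 0 genes passed, as also without Aged replicate 1 or Aged replicate 2.

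The change with age did not differ by this test between Gfap-poor and Gfap-rich astrocytes. The interaction of age and class passed for 0 of 383 genes (0%) by edgeR's quasi-likelihood test, with 38 (9.92%) at an unadjusted p under 0.05, 1 gene by DESeq2 and 0 by limma. Cd38 of the Gfap-rich cells went from 15.9 and 17.4 to 11.3 and 12.2, a smaller step than in the Gfap-poor cells (difference of log2 changes -0.46 ± 0.12, adjusted p = 0.234). C4b of the Gfap-rich cells went from 32.6 and 32.2 to 55.9 and 41.3 (0.19 ± 0.13, adjusted p = 0.698). C3 there went from 1.52 and 1.03 to 3.50 and 4.45 (-0.38 ± 0.20, adjusted p = 0.677). The missed threshold does not show that both classes aged alike.

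Against all other kept cells, the interaction passed for 19 of 383 genes (4.96%), 9 with a more positive change in the Gfap-poor cells (2.35%) and 10 with a more negative one (2.61%). Of these, 4 belonged to the rule (Ccnd2, Dlx6os1, Gfap and Plpp3) and are a description only. C3 stood apart the most, since it was at 3.76 and 2.5 in the other cells of the young and at 2.64 and 3.13 in those of the aged sections, and rose in the Gfap-poor cells (difference of log2 changes 1.34 ± 0.17, adjusted p = 1.31e-11). This call held in all 15 alternatives. Cd38, at 1.67 and 1.70 against 1.26 and 1.30 elsewhere, fell more in the Gfap-poor cells (-0.59 ± 0.14, adjusted p = 0.00238). C4b did not differ by the test (-0.087, adjusted p = 0.859), as it went from 3.09 and 3.38 to 6.65 and 4.89 in the other cells. Apoe, Clu, Fzd2 and Itih3, which astrocytes hold at a high level, had differences between -0.29 and -0.40. For Apoe, Gfap-poor cells were at 496, 465, 461 and 488, and the other cells at 81.1, 81.4, 106 and 98.1.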

How the data were processed

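Tissue of 4 coronal sections of 10 µm (Young, 2 months, n = 2; Aged, 18 months, n = 2) was imaged by MERFISH. The authors decoded transcripts with MERLIN on a Vizgen Alpha instrument and segmented cells, and deposited whole-number counts of 383 genes per cell. Deposited cell volumes and centre positions were used as a signal per cell. Members and gene lists were chosen with earlier results of these data known. Members held 731781 to 1099271 transcripts per section. Counts were summed per section and class or zone and tested with edgeR 4.0.16 (TMM, filterByExpr, glmQLFit and glmQLFTest, Benjamini-Hochberg threshold 0.05, R 4.3.3). Location was tested with two-sided exact permutation tests. Named genes were those of fixed lists (transport, lipid, metabolism, progenitor, reactive and signalling genes) and, per comparison, the 5 higher and 5 lower called genes of largest fold; other called genes were named after their values were seen. DESeq2 1.42.0, limma 3.58.1, other scalings and filters, other thresholds and zones, thinning and leaving out each section were alternatives. Simulated 2-fold changes were recovered for 96.88% of genes for age over all members but for 58.62% for the interaction of age and striatal part. The simulation gave every gene the same spread (dispersion 0.01) and added no further difference between sections. These shares therefore do not give the power of the tests in these data. The study describes its replicates as biological, and its legends count a mouse per section. With 2 per age, p-values rest on the spread between few animals. Replicate numbers inside the Young files differ from those in the titles, which were used. The dorsal direction was read from the corpus callosum, as no orientation column was used here. In Aged replicates 1 and 2, a small piece of ventral tubercle was joined to the striatum of a hemisphere. Results of some genes are not reported here.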

Additional observations from a re-analysis of the deposited data

Results flagged for a closer look

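Changes with age that differed between the dorsal and ventral striatum, by the interaction test in edgeR, were those of C4b (0.95), Meg3 (1.15), Sst (1.03) and Slfn5 (1.53), more positive dorsally, and those of Trf (-1.33), Cldn11 (-1.25), Mag (-1.29), Acta2 (-2.25) and P2ry12 (-0.96), more positive ventrally (log2 scale). By DESeq2 and by limma 0 of these passed. The value of Sst turned to -0.23 without mixed cells (adjusted p = 0.918), and that of P2ry12 to 0.29 with a marker share of at least 12% (adjusted p = 0.788).

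Changes with age that differed between the Gfap-poor astrocytes and all other kept cells were those of C3 (1.34), Top2a (1.17), Snhg11 (0.57), Cdkn1a (0.54) and Meg3 (0.50), more positive in the Gfap-poor astrocytes. Without mixed cells Meg3 passed in the opposite direction (-0.74, adjusted p = 0.0191), and Snhg11 (0.18, adjusted p = 0.737), Cdkn1a (0.55, adjusted p = 0.138) and Top2a (0.67, adjusted p = 0.383) no longer passed. Meg3 and Snhg11 are among the markers that defined the mixed cells. The changes of Il33 (-0.77), Cd38 (-0.59), Dab2 (-0.52), Fzd2 (-0.40), Itih3 (-0.38), Apoe (-0.34) and Clu (-0.29) were more negative. Top2a, a gene of dividing cells, was at 0.491 to 0.601 per 10000 in the Gfap-poor cells of the 4 sections and at 1.63, 1.52, 0.804 and 0.613 in the other cells. Il33, an alarmin of oligodendrocytes and astrocytes, was at 31.1, 33.2, 48.3 and 39.1 in the Gfap-poor and at 16.3, 17.9, 44.5 and 34.9 in the other cells.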

How the results depend on the processing

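Of the age calls over all Gfap-poor cells, 5 by edgeR's quasi-likelihood test, 0 remained by limma and 0 in each of the fits that left out a section, 2 with a marker share of at least 12%, 1 without mixed cells (where Meg3 turned to -0.47) and 12 without the ventricular wall, an alternative chosen after seeing the data. In striatal cells 0 genes passed, against 2 by DESeq2, 1 with RLE scaling, 3 without any Gfap transcript, 3 without mixed cells, 6 after thinning, 3 with spiny neurons at 50% nearby, 1 with a radius of 100 µm and 0 to 4 on leaving out a section. Dorsal against ventral, 19 genes became 1 by limma, 12 without any Gfap transcript, 12 at 50% spiny neurons, 31 with only the outermost dorsal and ventral tissue and 5 to 24 on leaving out a section. The 9 interactions of age and part became 0 by DESeq2, by limma, with library totals only, without the low-count filter, with at least 100 transcripts, without any Gfap transcript, at 12% marker share (P2ry12 at 0.29) and without mixed cells (Sst at -0.23), 2 after thinning, 4 with a radius of 100 µm and 0 to 8 on leaving out a section. Against the Gfap-rich class, 0 became 1 by DESeq2, 7 with RLE scaling, 2 without any Gfap transcript, 3 at 12% marker share, 3 after thinning, 3 without the wall and 0 to 8 on leaving out a section. Against all other cells, 19 became 7 by DESeq2, 2 by limma, 11 with library totals only, 2 without any Gfap transcript, 2 after thinning, 36 without the wall and 2 to 18 on leaving out a section, and Meg3 without mixed cells passed at -0.74. The age difference in the share of kept cells was -0.0715 without any Gfap transcript, -0.449 at 12% marker share, -0.0305 without mixed cells, 0.0939 after thinning and -0.138 without the wall, and that in striatal density was 1.15 after thinning. The cause was not tested in any of these.

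The difference between striatum and other grey matter held its direction for all 39 named genes under every alternative run, and 29 of them kept their call throughout. Same-numbered sections did not deviate together (correlation -0.061 over 383 genes in all cells and -0.033 over 367 in striatal cells). With a single difference between sections per age, this cannot exclude a pairing or a shared batch. The samples were treated as unpaired. With the replicate number as a block, 5 genes passed with age over all cells and 2 in striatal cells.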
